A study of Homo sapiens with 9 samples.

Results

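The genes described here are 6 human aldo-keto reductases of the AKR1 group: AKR1B10, AKR1C1, AKR1C2, AKR1C3, AKR1B1 and AKR1A1. They were taken by symbol from the Ensembl identifiers of a table of 60675 genes, and all 6 passed the filter on low counts that left 18356 genes for testing. They were chosen by their dose trends in these same libraries, so their changes against vehicle are given as a description, with no p-value.

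SW1783 is an established human astrocytoma cell line. The cells were exposed for 24 h to an extract made with 70% ethanol from Poria Cocos, a fungus, or from Atractylodis Rhizoma, a plant rhizome, both of which are used as tonifying herbal medicines. Each extract was given at 20, 100 and 500 µg/mL with 1 library per dose, and the reference was DMSO vehicle with 3 libraries. Vehicle is 0.1% DMSO by the labels of the samples but 2% by the series design, and for the treated libraries no DMSO share is given. All groups are of 1 cell line grown with 10% fetal bovine serum, and nothing in the labels says that the libraries came from separate cultures. The p-values therefore reflect the spread of libraries around each fit, and that spread could be technical. With 1 library per dose, the spread in the fits of dose slopes includes any departure of a gene from a straight line over dose steps.

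Aldo-keto reductases use NADPH to reduce aldehydes and ketones to alcohols. AKR1B10 reduces retinal and lipid-derived aldehydes, the AKR1C enzymes reduce steroids and prostaglandins, AKR1B1 (aldose reductase) reduces glucose to sorbitol, and AKR1A1 (aldehyde reductase) handles a broad range of aldehydes, glucuronate among them. In human cells, AKR1B10 and the AKR1C genes are known targets of the transcription factor NRF2 (gene NFE2L2), which the adaptor KEAP1 holds down until electrophiles modify it.

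The AKR1C genes lie side by side on chromosome 10 and are close copies, which bears on every AKR1C value below. AKR1C1 and AKR1C2 differed at 19 of 972 coding bases (98.0% identical), AKR1C1 and AKR1C3 at 79 (91.9%), whereas AKR1B1 and AKR1B10 were 75.3% identical over 951. The longest stretch without a difference was 189 bases between AKR1C1 and AKR1C2, and 105 bases over all 3 genes, against a read length of 100. Coding bases 63 to 162 are shown as a stretch in which the copies can be told apart, read from GENCODE 29 transcripts on the coding strand. Capitals mark, in the AKR1C1 and AKR1C2 lines, the bases at which those differ from each other (10 bases), and in the AKR1C3 line, the bases at which it differs from AKR1C1 (11 bases).
AKR1C1: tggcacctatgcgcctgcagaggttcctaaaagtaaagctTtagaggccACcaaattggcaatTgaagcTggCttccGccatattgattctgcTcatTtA
AKR1C2: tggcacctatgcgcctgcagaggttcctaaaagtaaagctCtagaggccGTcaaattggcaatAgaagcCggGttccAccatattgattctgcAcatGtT
AKR1C3: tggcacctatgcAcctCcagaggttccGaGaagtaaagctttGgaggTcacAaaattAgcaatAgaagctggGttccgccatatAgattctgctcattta

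Over whole transcripts, 32.9% of the windows of 100 bases in AKR1C2 were also found in another gene of the set searched, against 17.4% in AKR1C1, 5.0% in AKR1C3 and 1.1% in AKR1B10, whose shared windows all lay in AKR1B15. AKR1B1 and AKR1A1 shared none. Single windows take no account of the other read of a pair. The shares also depend on the transcript used, of 6705 bases for AKR1C1 and 3756 for AKR1C2. In the coding sequence, AKR1C1 and AKR1C2 each shared 19.1% of windows with the other. The split of counts between AKR1C1 and AKR1C2 is therefore the least certain of the values given here, and the sum of the AKR1C counts is given beside the single genes.

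The copies resemble each other upstream too. RefSeq promoter entries (GRCh38.p14) matched 5 of the 6 genes with 7 start sites, and AKR1B10 had no entry. The 250 bases before the start of AKR1C1 and of AKR1C2 differed at 1 of 246 aligned bases. The CCAAT motif, which reads ATTGG on the other strand and is in capitals there, stood in each of the 4 AKR1C windows, between 73 and 86 bases before the start, and 30 bases around it are shown to set the copies side by side: the AKR1C1 and AKR1C2 lines are identical and the AKR1C3 lines differ from them on both sides of the motif.
AKR1C1, chr10:4963326-4963355, plus strand: ctctcacatgccATTGGttaaccagcagac
AKR1C2, chr10:5003921-5003950, minus strand: ctctcacatgccATTGGttaaccagcagac
AKR1C3, chr10:5048696-5048725, plus strand: cttttacatgctATTGGttaaccattaggc
AKR1C3, chr10:5094316-5094345, plus strand: ctcctacatgccATTGGttaaccatcagtc

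Windows of 300 bases (250 before the start and 50 after) were searched on both strands for 6 motifs. CCAAT was present in 34.6% of 35116 promoters and, beside the AKR1C windows, in both AKR1B1 windows, which overlap and hold it at the same site. The antioxidant response core TGACNNNGC, present in 13.3%, was not among the letters of any of the 7 windows. Neither was the AP-1 motif TGANTCA (7.71% of promoters). TATAAA (11.5%) was found in 1 AKR1C3 window. The GC box GGGCGG (45.0%) was found in AKR1B1 and AKR1A1, and the E-box CACGTG (7.26%) in AKR1A1, where it overlapped a GC box by 1 base. These are matches of letters and describe no binding, and AKR1B10 had no window to search.

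Library totals were 42499213 to 48905536 counts in the treated libraries and 40269665 to 43805624 in vehicle, with 24730 to 25626 genes counted in the treated libraries and 24530 to 24630 in vehicle. Of the fixed astrocyte and glioma markers, GFAP, S100B, AQP4 and ALDH1L1 had 0 to 7 counts in every library, so the defining astrocyte genes were near 0, while VIM, CD44, SOX9 and GJA1 were well above the filter. The 7 tested markers of that list summed to 7667 to 8357 CPM in treated libraries and 8866 to 9260 CPM in vehicle. Most of that sum is VIM (5985 CPM in vehicle, mean) and CD44 (2747 CPM). The list was mixed: SLC1A3 lay above all vehicle libraries in every treated library, and VIM, GJA1 and SOX9 lay below them. Of all genes tested, 12.4% lay wholly above and 13.7% wholly below. KRT18 and KRT8, the tested members of a list of 7 liver and epithelial markers, summed to 127 to 229.7 CPM in treated libraries and 239 to 246 CPM in vehicle, and ALB, APOA1, TTR, EPCAM and CDH1 had 0 to 7 counts. The part of these shifts in the results below was not tested, and fewer cells of a kind and less RNA per cell cannot be told apart in bulk RNA.

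CPM is a gene's count scaled to the library total after TMM normalisation. Per length, AKR1B1 stood highest of the 6 genes in vehicle, at 142 ± 3.40 CPM per kb (SD, n = 3), and AKR1A1 second at 30.5 ± 0.474 CPM per kb of its longest coding transcript. AKR1B10 had 2.03 ± 0.0880 and AKR1C2 1.97 ± 0.0548 CPM per kb on that scale, a difference within their SDs. The place of AKR1C1 depended on the transcript taken as its length, with 2.99 CPM per kb for the longest and 23.4 for the median coding transcript. On either scale AKR1B1 and AKR1A1 kept the first and the second place.

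AKR1B10, AKR1C1, AKR1C2 and AKR1C3 were higher in all 6 treated libraries than in all 3 vehicle libraries, and AKR1B1 and AKR1A1 were not. Of all genes tested, 12.4% lay wholly above vehicle in this way and 13.7% wholly below. The largest change of the 6 was that of AKR1B10, at 2.37 times the vehicle mean with 500 µg/mL of Poria and 2.33 times with 500 µg/mL of Atractylodis. At that dose AKR1C1 was about 2-fold higher with either extract, at 1.97 times vehicle with Poria and 2.05 times with Atractylodis.

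**Figure D1:**
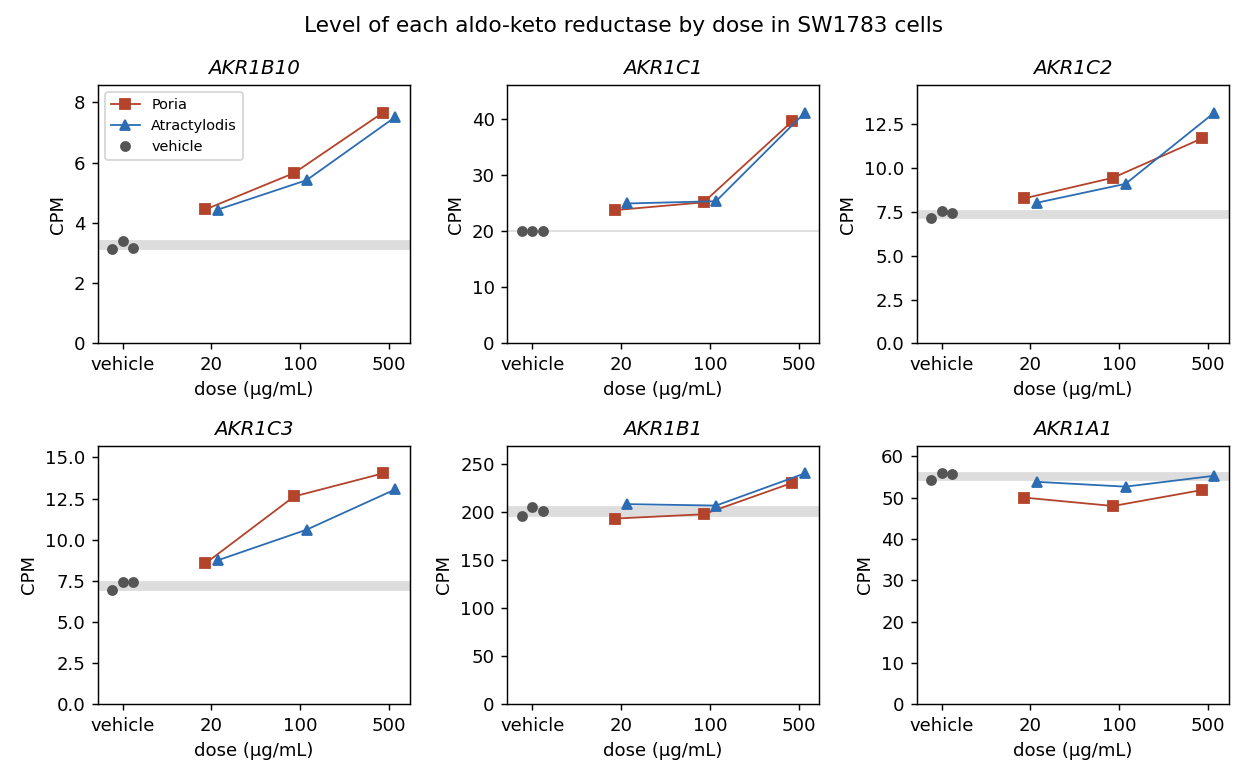
CPM of each gene (vertical axis from 0) in every library against dose in µg/mL, with Poria as squares, Atractylodis as triangles and the 3 vehicle libraries as dots over a grey band that spans them. In the panels of AKR1B10, AKR1C1, AKR1C2 and AKR1C3 every treated point lies above the band, and in those of AKR1B1 and AKR1A1 some treated points fall within or below it.

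AKR1B10 (ENSG00000198074, GRCh38 chromosome 7, 134527592 to 134541408, plus strand) had 3.13, 3.39 and 3.16 CPM in the vehicle libraries. It had 4.45, 5.66 and 7.66 CPM with 20, 100 and 500 µg/mL of Poria, and 4.44, 5.42 and 7.52 CPM with the same doses of Atractylodis. The lowest treated library stood above the highest vehicle library, and the order within each extract followed the dose. Its slope was 0.41 ± 0.04 (SE) log2 per dose step for Poria and 0.40 ± 0.04 for Atractylodis, where a step is a 5-fold dose increase and the first runs from vehicle to 20 µg/mL. On the log2 scale the steps were 0.46, 0.34 and 0.43 for Poria and 0.46, 0.28 and 0.47 for Atractylodis, the middle one being the smallest in each. AKR1B10 is the least abundant of the 6 in CPM, with 129 to 385 counts a library, for which counting error alone is 5.10 to 8.80%.

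The AKR1C genes were higher than in vehicle at every dose. AKR1C1 (ENSG00000187134, chromosome 10, 4963253 to 4983283, plus strand), a hydroxysteroid dehydrogenase that reduces progesterone to a less active product, had 20.1, 20.1 and 20.0 CPM in the vehicle libraries. Poria gave 23.7, 25.1 and 39.6 CPM at 20, 100 and 500 µg/mL, and Atractylodis 24.9, 25.3 and 41.1 CPM. The 2 lower doses were nearly level and the top dose stood apart in both extracts. The step from 100 to 500 µg/mL made up 66.9% of the whole log2 change with Poria and 67.5% with Atractylodis. Its slopes were 0.30 ± 0.04 for Poria and 0.32 ± 0.04 for Atractylodis.

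AKR1C2 (ENSG00000151632, chromosome 10, 4987400 to 5018031, minus strand) reduces dihydrotestosterone to a weaker androgen. It had 7.18, 7.59 and 7.43 CPM in vehicle. With Poria it had 8.28, 9.46 and 11.7 CPM in order of dose, and with Atractylodis 8.03, 9.11 and 13.2 CPM. The values climbed at each dose and none reached down into the vehicle range. Its slopes, 0.23 ± 0.03 for Poria and 0.26 ± 0.03 for Atractylodis, were the lowest of the AKR1C genes for each extract.

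AKR1C3 (ENSG00000196139, chromosome 10, 5035354 to 5107686, plus strand) forms testosterone from androstenedione and acts as a prostaglandin F synthase. It had 6.97, 7.41 and 7.43 CPM in vehicle. It had 8.55, 12.6 and 14.0 CPM with 20, 100 and 500 µg/mL of Poria, and 8.75, 10.6 and 13.1 CPM with Atractylodis. With Poria most of the change came between 20 and 100 µg/mL, where the step was 0.56 on the log2 scale, and with Atractylodis the steps were even at 0.27, 0.28 and 0.30. The slopes were 0.34 ± 0.03 for Poria and 0.28 ± 0.03 for Atractylodis.

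**Figure D2:**
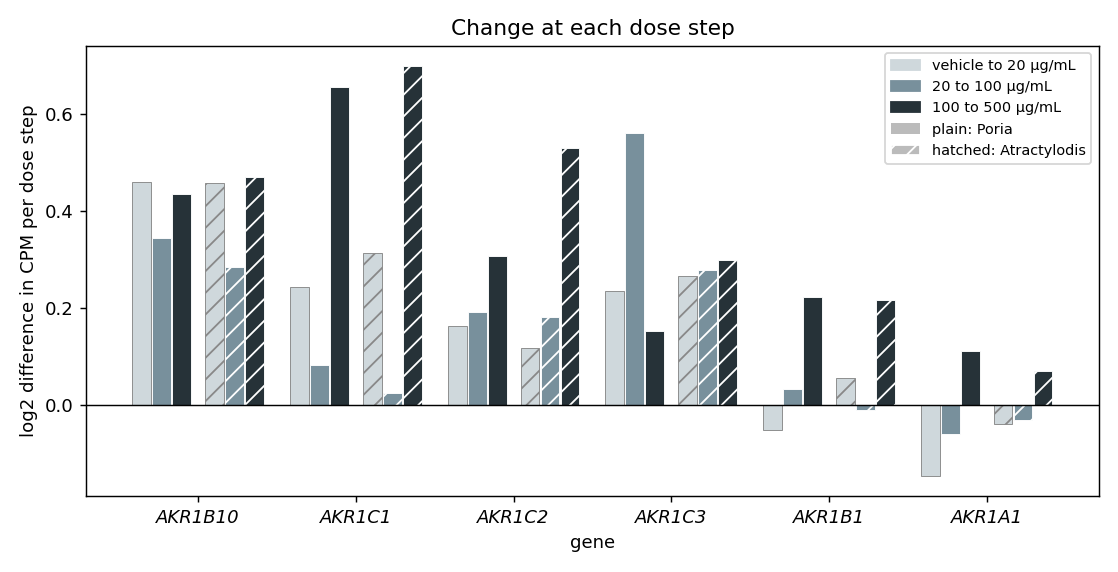
Log2 difference in CPM at each dose step (vertical axis) for each gene, with plain bars for Poria and hatched bars for Atractylodis, from single libraries and the vehicle mean. For AKR1C1 the darkest bars, 100 to 500 µg/mL, reach 0.66 with Poria and 0.70 with Atractylodis, whereas for AKR1C3 with Poria the middle bar is the tallest at 0.56.

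Summed over AKR1C1, AKR1C2 and AKR1C3, which does not depend on how reads were split among them, the level was 34.7 ± 0.438 CPM in vehicle (SD, n = 3). It was 40.6, 47.2 and 65.3 CPM with 20, 100 and 500 µg/mL of Poria, and 41.7, 45.0 and 67.3 CPM with Atractylodis. The summed slopes were 0.29 ± 0.03 for Poria and 0.30 ± 0.03 for Atractylodis. For every gene of the 6 but AKR1B1, the vehicle SD was smaller than counting error alone. For AKR1C1 it was 0.287% of the mean, against a counting error of 2.24 to 3.56%. The vehicle SDs can therefore understate the spread among libraries.

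Within that sum, AKR1C3 made up 26.7% of the AKR1C counts in the library with 100 µg/mL of Poria (95% exact binomial interval 24.9 to 28.7%), against 20.3, 21.1 and 21.3% in the vehicle libraries. AKR1C1 was at 53.2% there (51.0 to 55.4%), against 57.3 to 58.7% in vehicle. The share of AKR1C3 in the other treated libraries ran from 19.4 to 23.5%. AKR1C2 made up 17.9 to 20.4% in the 6 treated libraries, against 21.0 to 21.6% in vehicle. Each treated interval overlapped that of at least 1 vehicle library, which does not show that the shares are equal. The lowest was 16.6 to 19.3% at 500 µg/mL of Poria. The AKR1C1 share was above the vehicle range at 500 µg/mL of Poria (60.6%) and of Atractylodis (61.0%), and at 20 µg/mL of Atractylodis (59.8%). At 100 µg/mL of Atractylodis it was below that range (56.2%). The intervals cover counting error only, each treated share comes from 1 library, and the copies share sequence.

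**Figure D3:**
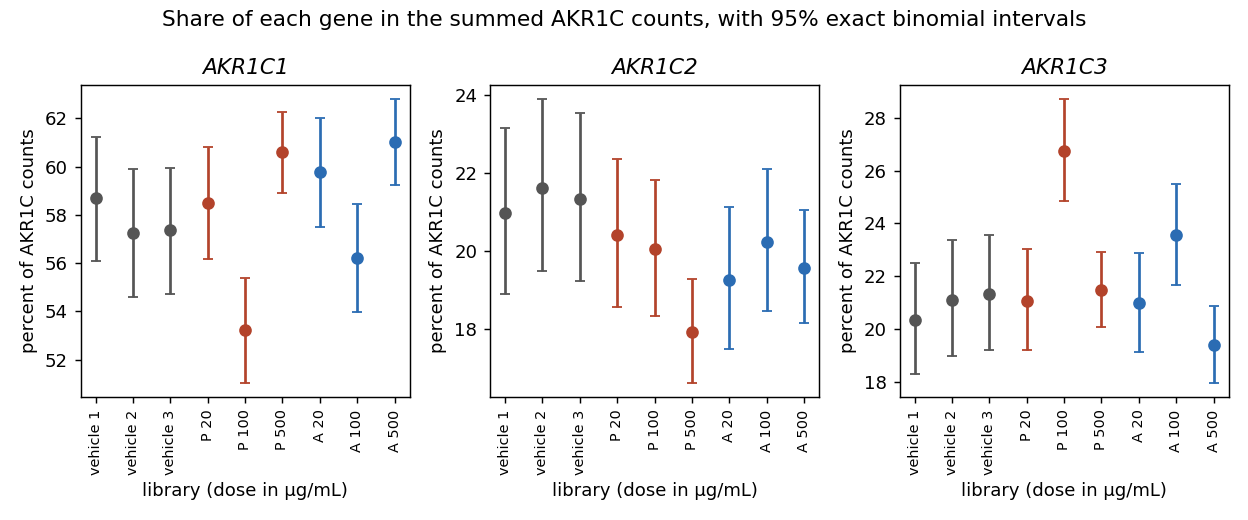
Percent of the summed AKR1C counts taken by each gene (vertical axes that do not start at 0) in each library, with P for Poria and A for Atractylodis at the dose in µg/mL, and 95% exact binomial intervals. The point for AKR1C3 at 100 µg/mL of Poria is at 26.7%, and the interval lies above those of the 3 vehicle libraries.

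AKR1B1 (ENSG00000085662, chromosome 7, 134442350 to 134459284, minus strand), the first enzyme of the polyol pathway, differed little from vehicle below the top dose. It had 195, 205 and 201 CPM in vehicle, 193, 198 and 230.4 CPM with rising doses of Poria, and 208, 207 and 240.2 CPM with Atractylodis. At 20 and 100 µg/mL of Poria it lay inside or below the vehicle range, the lower doses of Atractylodis lay just above it, and at 500 µg/mL both extracts lay well above it. Its slopes were 0.05 ± 0.02 for Poria and 0.08 ± 0.02 for Atractylodis.

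AKR1A1 (ENSG00000117448, chromosome 1, 45550543 to 45570049, plus strand) was the one gene of the 6 not above the vehicle mean at any dose under TMM scaling. It had 54.4, 55.9 and 55.8 CPM in vehicle, 50.0, 48.0 and 51.9 CPM with rising doses of Poria, and 53.8, 52.7 and 55.3 CPM with Atractylodis. All 3 Poria libraries lay below the vehicle range, and 1 Atractylodis library lay within it. Its slopes were -0.05 ± 0.02 for Poria and -0.00 ± 0.02 for Atractylodis. Scaled by the library total alone, which moves the median of all genes by 0.07 on the log2 scale, AKR1A1 stood at 1.02 and 1.05 times vehicle at 20 and 500 µg/mL of Atractylodis, against 0.972 and 0.999 times under TMM. AKR1B1 at 100 µg/mL of Poria likewise stood at 1.04 times vehicle, against 0.987 under TMM, so these directions depend on the scaling.

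Counted by the threshold of edgeR's quasi-likelihood test (adjusted p of 0.05 over all genes tested), 4 of the 6 genes were called higher in the Poria trend and 5 in the Atractylodis trend, AKR1B1 being the one that differed. Over all genes tested, 9.17% were called higher for Poria and 8.49% for Atractylodis. The median slope of the 6 genes was 0.26 for Poria and 0.27 for Atractylodis, and that of all tested genes was 0.00 for each. Since these trends chose the genes, nothing is read from the counts. The extracts share the vehicle libraries, so their trends are not independent. Without the library at 500 µg/mL, the AKR1C1 slope was 0.19 for Poria and 0.21 for Atractylodis and neither was called, AKR1A1 was called lower for Poria, and 2 genes (AKR1B10 and AKR1C3) were called for Atractylodis. With the dose in µg/mL in place of dose steps, 2 genes (AKR1C1 and AKR1C2) were called in each trend.

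Against vehicle at single doses, 5 of the 6 genes were called higher at 500 µg/mL of either extract (14.4% of all genes with each). At 100 µg/mL, 4 were called higher with each (11.2% for Poria and 11.3% for Atractylodis). At 20 µg/mL, AKR1B10 and AKR1C1 were called higher with each (8.42% of all genes for Poria and 7.51% for Atractylodis). AKR1A1 was called lower at 20 and at 100 µg/mL of Poria (11.4% of all genes at 20 µg/mL and 14.3% at 100 µg/mL). These are the values that chose the genes, so nothing is read from these counts either, and the fit takes the spread of the vehicle libraries as the spread at each dose.

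Slopes set by the 3 treated doses alone, without the vehicle level, were 0.39 ± 0.07 for Poria and 0.38 ± 0.07 for Atractylodis in AKR1B10, and 0.35 ± 0.06 for Poria and 0.29 ± 0.06 for Atractylodis in AKR1C3. AKR1C1 had slopes of 0.38 ± 0.12 for Poria and 0.37 ± 0.12 for Atractylodis, close to those of AKR1B10, with a wider SE, and was not called. Its lower doses were nearly level and its top dose stood apart, and such a departure from a straight line enters the SE. Called higher were 4 genes for Poria (1.2% of all genes) and 3 for Atractylodis (1.5%), counts that rest on the doses that chose the genes and from which nothing is read. For Poria, leaving out the library at 20 µg/mL left 0 genes called and leaving out that at 500 µg/mL left 1. For Atractylodis, 1 was called without the library at 20 µg/mL, 5 without that at 100 µg/mL and 0 without that at 500 µg/mL.

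The difference between the extracts was not itself used to choose the genes. The trends compared here were known at that choice, so the test may not be independent of it. No difference between the extracts passed the threshold for any of the 6. Over all genes, 1.16% passed it for the difference in slope and 0.0545% for the mean difference at matched dose, which compares 3 Poria with 3 Atractylodis libraries and uses no vehicle. For AKR1B10 the slopes differed by 0.01 (95% interval -0.06 to 0.09, adjusted p = 0.92, edgeR), and the levels at matched dose by 0.03 on the log2 scale (-0.17 to 0.23, adjusted p = 0.95). As a ratio of Poria over Atractylodis this is 1.02, with an interval of 0.891 to 1.17. AKR1C1 differed in slope by -0.02 (-0.13 to 0.09, adjusted p = 0.92) and AKR1C2 by -0.03 (-0.11 to 0.05, adjusted p = 0.79).

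AKR1C3 was the AKR1C gene with the largest difference between extracts, with Poria over Atractylodis ratios of 0.978, 1.19 and 1.07 at 20, 100 and 500 µg/mL. Its slope difference was 0.06 (-0.01 to 0.12, adjusted p = 0.49, edgeR) and its mean difference 0.11 (-0.05 to 0.28, adjusted p = 0.69). For the summed AKR1C counts the slope difference was -0.00 (-0.07 to 0.06, adjusted p = 0.97). AKR1B1 had ratios below 1 at all 3 doses, a mean difference of -0.08 (-0.17 to 0.02, adjusted p = 0.61).

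AKR1A1 was lower with Poria at 3 of 3 doses, with ratios of 0.929, 0.911 and 0.937. The mean difference was -0.11 on the log2 scale (95% interval -0.21 to -0.01, not adjusted for the number of genes), which did not pass edgeR's test over all genes (adjusted p = 0.48). These intervals say how large a difference the data still allow, and a p-value over the threshold does not show that the extracts act alike.

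**Figure D4:**
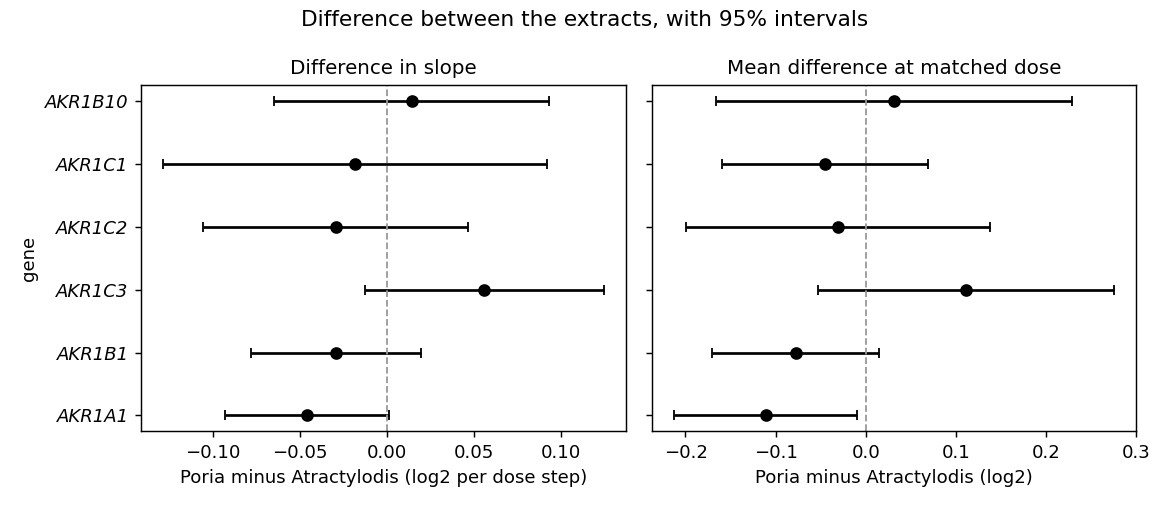
Poria minus Atractylodis for each gene with 95% intervals: the difference in slope (log2 per dose step, left) and the mean difference at matched dose (log2, right). Every interval includes 0 except that of AKR1A1 at matched dose, which runs from -0.21 to -0.01 before adjustment for the number of genes.

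The genes most like AKR1B10 and the summed AKR1C genes were found by the root mean square difference of log2 change from the vehicle mean over the 6 treated libraries, among 11389 genes that leave out the 6 members. For the AKR1C sum these were NQO1 (0.07), SLC7A11 (0.09), ALDH3A2 (0.17), FAM227A (0.19) and TCIM (0.20), where the median gene differed by 0.62. For AKR1B10 they were AHSA2P (0.22), MEG9 (0.25), SLC7A11 (0.26), NQO1 (0.27) and IGFN1 (0.29), against 0.89 for the median gene. Among the members left out, AKR1C3 differed from AKR1B10 by 0.24, AKR1C1 by 0.31 and AKR1C2 by 0.42. NQO1 had 150, 190 and 247 CPM with rising doses of Poria and 165, 173 and 237 CPM with Atractylodis, and 130 ± 0.700 CPM in vehicle.

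Among 10 further genes of the aldo-keto reductase superfamily, 8 were tested, and AKR1C4 and AKR1D1, the liver enzymes of the family, had 0 or 1 count in every library. KCNAB2, a potassium channel subunit with an aldo-keto reductase fold, rose in both trends (0.20 ± 0.03, adjusted p = 0.00027 for Poria, and 0.15 ± 0.03, adjusted p = 0.0027 for Atractylodis, edgeR). AKR1E2 rose with Poria (0.22 ± 0.06, adjusted p = 0.019) and had a slope of 0.05 ± 0.07 with Atractylodis (adjusted p = 0.65), but is low, at 1.64 CPM in vehicle (mean). It had 2.25, 1.97 and 2.67 CPM with rising doses of Poria. AKR1B15, which shares windows with AKR1B10, had 0.464 CPM in vehicle (mean). Its slopes were 0.27 ± 0.10 for Poria (adjusted p = 0.061) and 0.13 ± 0.11 for Atractylodis (adjusted p = 0.45). None was called lower, and the median slope of the 8 was 0.07 for Poria and 0.03 for Atractylodis. AKR7A2 had slopes of -0.04 ± 0.02 for each extract, not past the threshold. Among all genes tested, 11.6% were called lower and 9.17% higher in the Poria trend, and 10.5% lower and 8.49% higher in the Atractylodis trend, the background for the counts in these lists. In the lists, rose and fell mean past the threshold. The slopes include the step from vehicle, so a gene can pass without a change over the treated doses.

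Of 13 other carbonyl and quinone reductases, 3 rose and 1 fell with Poria (9.17% and 11.6% over all genes), and 4 rose and 1 fell with Atractylodis (8.49% and 10.5%), at median slopes of 0.03 for Poria and 0.04 for Atractylodis. CBR4, a mitochondrial carbonyl reductase, rose with Poria (0.20 ± 0.03, adjusted p = 0.00066, edgeR) and with Atractylodis (0.12 ± 0.03, adjusted p = 0.017). Without the vehicle level, the CBR4 slope was 0.07 ± 0.05 for Poria and 0.18 ± 0.06 for Atractylodis. DCXR, which reduces L-xylulose, fell with Poria (-0.10 ± 0.02, adjusted p = 0.0016) and with Atractylodis (-0.08 ± 0.02, adjusted p = 0.0079). PTGR1, which takes part in the breakdown of prostaglandins and leukotrienes, rose with Poria at a slope of 0.07 ± 0.02 (adjusted p = 0.014). With Atractylodis its slope was 0.03 ± 0.02 (adjusted p = 0.25).

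Of 26 regulators and targets of NRF2, 10 rose and 1 fell with Poria (9.17% and 11.6% over all genes), and 10 rose and none fell with Atractylodis (8.49% and 10.5%), at median slopes of 0.06 for Poria and 0.07 for Atractylodis. The mRNA of NRF2 itself, NFE2L2, had a slope of 0.01 ± 0.02 for Poria (adjusted p = 0.63, edgeR) and -0.00 ± 0.02 for Atractylodis (adjusted p = 0.94). KEAP1 fell with Poria (-0.06 ± 0.02, adjusted p = 0.045) and had a slope of 0.01 ± 0.02 with Atractylodis (adjusted p = 0.86). The list holds regulators as well as targets, so its counts do not describe targets alone. BACH1, a regulator, was among those that rose with Atractylodis (0.08 ± 0.02, adjusted p = 0.027, edgeR). MAFF lay below all vehicle libraries in every treated library, as did 13.7% of all genes tested. HMOX1 stood at 0.792, 0.848 and 1.21 times the vehicle mean with rising doses of Poria, and 0.888, 0.986 and 2.33 times with Atractylodis. ME1, malic enzyme, rose in both trends, and TXNRD1, thioredoxin reductase, rose by 0.19 ± 0.03 per step with Poria (adjusted p = 0.0014) and 0.10 ± 0.03 with Atractylodis (adjusted p = 0.049).

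**Figure D5:**
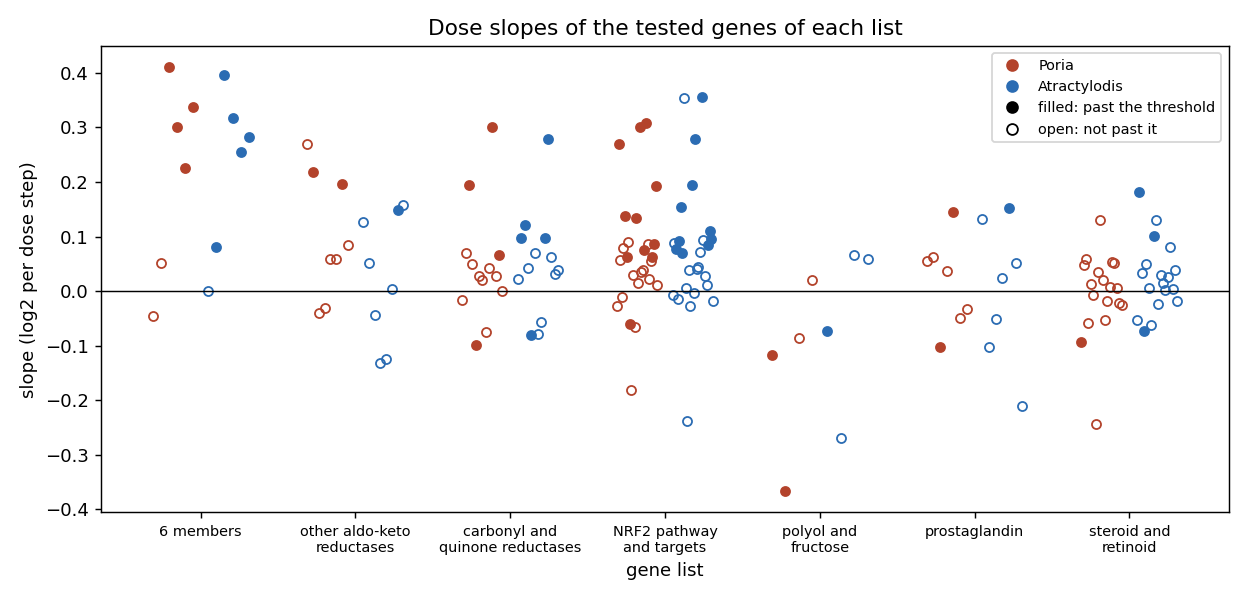
Slope (log2 per dose step, vertical axis) of each tested gene in the 6 members and in 6 related lists, with Poria left of Atractylodis in each pair and filled points past the threshold. Above 0, the NRF2 list has filled points from 0.06 to 0.36 and the polyol and fructose list none.

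No gene around AKR1B1 in the polyol and fructose pathway passed the threshold upward, and the median slope of the 4 tested was -0.10 for Poria and -0.01 for Atractylodis. ALDOA, an aldolase of glycolysis, fell in both trends (-0.12 ± 0.02, adjusted p = 0.0012 for Poria, and -0.07 ± 0.02, adjusted p = 0.023 for Atractylodis, edgeR). Over the treated doses alone, ALDOA had slopes of -0.04 ± 0.03 for Poria and -0.02 ± 0.03 for Atractylodis. KHK, ketohexokinase, fell with Poria (-0.37 ± 0.10, adjusted p = 0.019) and had a slope of -0.27 ± 0.11 with Atractylodis (adjusted p = 0.083). It is near the floor, at 0.882 CPM in vehicle (mean) and 0.476, 0.498 and 0.458 CPM with rising doses of Poria. SORD, which takes the sorbitol made by AKR1B1 on to fructose, had slopes of 0.02 ± 0.02 for Poria (adjusted p = 0.59) and 0.06 ± 0.02 for Atractylodis (adjusted p = 0.075).

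The 7 tested prostaglandin genes had median slopes of 0.04 for Poria and 0.02 for Atractylodis. PTGS2 lay below all vehicle libraries in every treated library, as did 13.7% of all genes tested. It had 87.6 CPM in vehicle (mean), 53.7, 68.8 and 82.9 CPM with rising doses of Poria, and 51.7, 55.7 and 55.4 CPM with Atractylodis. Its slopes were -0.03 ± 0.10 for Poria (adjusted p = 0.86, edgeR) and -0.21 ± 0.10 for Atractylodis (adjusted p = 0.21), not past the threshold. PTGFR, the receptor for prostaglandin F, rose with Poria (0.15 ± 0.04, adjusted p = 0.013, edgeR) and with Atractylodis (0.15 ± 0.04, adjusted p = 0.012). Set by the treated doses alone, the PTGFR slopes were 0.01 ± 0.04 for Poria and 0.04 ± 0.04 for Atractylodis. PTGES2, a prostaglandin E synthase, fell with Poria (-0.10 ± 0.02, adjusted p = 0.00082). With Atractylodis its slope was -0.05 ± 0.02, just short of the threshold. Of 18 tested steroid and retinoid oxidoreductases, 1 fell with Poria (DHRS3, a retinal reductase, -0.09 ± 0.03, adjusted p = 0.025), and with Atractylodis 2 rose and 1 fell (8.49% and 10.5% over all genes), at median slopes of 0.01 for Poria and 0.02 for Atractylodis. These shares are near the background and are no result about the list. HSD17B4, a peroxisomal enzyme of fatty acid oxidation, rose with Atractylodis (0.10 ± 0.02, adjusted p = 0.0012) and had a slope of 0.04 ± 0.02 with Poria (adjusted p = 0.18). DHRS3 had a slope of -0.05 ± 0.03 with Atractylodis (adjusted p = 0.21).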

How the data were processed

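Total RNA of 9 SW1783 libraries (6 treated, 3 vehicle) was measured by stranded, paired RNA-seq. The deposited values are expected counts per gene made by the authors with RSEM 1.3.3, after FastQC 0.11.9, Trim Galore 0.6.5 and STAR 2.7.3a on hg38, per the submitters' processing notes. The annotation release is not given in the sources used here. In all, the table holds 279 columns, of which 270 are of other samples and were not used. Expected counts were rounded to whole numbers. Symbols, positions and transcript sequences came from GENCODE 29.

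Python 3.11.15 and R 4.3.3 were used. edgeR 4.0.16 (TMM, filterByExpr with a count minimum of 10, robust quasi-likelihood test, Benjamini-Hochberg adjustment, threshold 0.05) was fitted on 18356 genes. The dose trend had 1 slope per extract over vehicle, 20, 100 and 500 µg/mL with 6 residual degrees of freedom. Matched doses used the treated libraries with dose as a block (2 residual degrees of freedom). Intervals are the estimate ± the SE times the t quantile at 95%. The fits were tested on simulated data. Alternatives used DESeq2 1.42.0, a GC and length correction, and leaving out each library.

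The members and lists were chosen with earlier results of these data known. Named genes are the members, NFE2L2, KEAP1 and NQO1, the up to 4 genes per list with the smallest p in either trend, and the 5 most alike genes (mean log2 CPM of at least 2); the text describes part of these.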

Additional observations from a re-analysis of the deposited data

How the results depend on the processing

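No paired analysis was possible because every treated library is numbered replicate 2, so the groups share fewer than 2 numbers; the matched-dose comparison sets libraries of equal dose against each other, not of equal replicate number. With the dose in µg/mL in place of dose steps, 2 members were called higher in each trend (AKR1C1 and AKR1C2), against 4 for Poria and 5 for Atractylodis. Leaving out single libraries gave 3 to 5 members called higher and 0 to 1 lower in the Poria trend, 2 to 5 higher in the Atractylodis trend, and 0 to 5 for each slope within the treated libraries. Without the library at 500 µg/mL, the AKR1C1 slope was 0.19 for Poria and 0.21 for Atractylodis and was no longer called, and AKR1A1 was called lower for Poria (-0.10). With DESeq2's Wald test, the slopes within the treated libraries gave 1 member for Poria and 0 for Atractylodis, where 3 and 4 members had no adjusted p. With the AKR1C counts summed, the sum at 20 µg/mL was 0.22 log2 above vehicle with Poria and 0.26 with Atractylodis. AKR1C1 alone was 0.24 above with Poria and 0.31 with Atractylodis. A tally of members is not comparable there, because the sum is 1 test for 3 genes. With the correction for GC content and length, AKR1B1 was also called in the Poria trend (0.08), and the AKR1A1 slope was -0.00. The cause of these shifts was not tested. The counts of members called higher or lower rest on the doses that chose the genes. The share of all genes called under each setting is not set beside them, so nothing is read from these counts. None of the 156 recomputed extract differences passed the threshold, and the lowest adjusted p was 0.35. In all, 18 values not past the threshold in either setting changed sign, the largest at 0.10. Counting error limits AKR1B10 most (up to 8.80%), and 1 library per dose limits every member.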
